A study of Mus musculus with 34 samples.

Results

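The CpG islands of extracellular matrix and matrix protease genes were followed over 34 mouse mDIP microarrays. A probe was included when its gene name in the array annotation was a collagen chain, a laminin chain, a matrix metalloproteinase (MMP), an ADAMTS protease, Timp2 to Timp4, Comp, Thbs1 to Thbs4, Fbn1 or Fbn2, a fibulin or a matrilin, and when it lay on an autosome. Probes at most 500 bases apart were joined into islands, and an island was kept when at least 3 of its probes were measured on every array. This gave 65 islands of 56 genes, or 0.477% of the 13616 islands scored on the arrays (13240 of them autosomal). Another 3 groups of matching probes, 1 of Col6a2 and 2 of Mmp24, held fewer than 3 probes and were not scored. The neighbouring genes Col4a1 and Col4a2 share 1 island, and 8 genes have more than 1 island (3 each for Comp and Mmp28), numbered in order from the start of the gene except for Adamts14, which is numbered by coordinate. Islands matching the rule were not scored for Col1a1, Col1a2, Lamb1, Timp4 and Thbs1.

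The extracellular matrix is the scaffold of secreted proteins around cells. Fibrillar collagens bear tension, laminins and network collagens form the basement membranes on which epithelia rest, and fibrillins and fibulins build elastic fibres. Proteases of the MMP and ADAMTS families cut these proteins during tissue growth, repair and cell migration, and the TIMPs are their secreted inhibitors. A CpG island is a stretch rich in CpG dinucleotides, often at the start of a gene, and is usually unmethylated in normal tissue, while methylation of an island at a start is generally linked with silence of that gene. No expression was measured on these arrays.

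In mDIP, an antibody against 5-methylcytidine pulls down methylated DNA fragments, which are labelled with Cy5 and hybridised together with the Cy3-labelled input DNA. The island methylation score used here is the mean Z-score of the probes of an island, where the Z-score places the log10 ratio of bound over input of a probe within all probes of the same array, so that 1 unit is 1 SD of an array and 0 is its mean. The study counted an island above 0.75 as highly methylated and below 0 as unmethylated, but on Z-scores set by the melting temperature (Tm) of the probe, a step that the score used here leaves out, so that the same limits mark only levels on this scale. The score is a relative enrichment that also depends on CpG density, not a percentage of methylated cytosines.

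The 16 adult arrays held colon, pancreas, brain, kidney, liver, lung, muscle and spleen (2 arrays each) from mice of either sex aged 3 months, and the embryo group held 1 array each of 8.5, 9.5, 10.5, 11.5 and 12.5 days post coitum (dpc). Undifferentiated embryonic stem (ES) cells were the lines EB5, J1 and TT2, 1 array each. The 5 arrays of ES cells differentiated in vitro comprised, by their labels, a pair derived from TT2 (embryoid bodies and cells given retinoic acid) and endoderm (2 arrays) and mesoderm from EB5. According to the study's methods, the endoderm and mesoderm were sorted by reporter genes after Activin A, from a derivative of EB5 that carries those reporters. The remaining arrays were 2 teratomas labelled as generated from J1, purified ex vivo β cells from pancreas, and the mouse pancreatic tumour lines Min6, of β cell origin, and αTC, of α cell origin (1 array each). The methods give C57Bl/6 as the source of all mouse DNA, name J1 for the retinoic acid cells and other lines for the teratomas, and state that the teratomas grew under the skin of NOD-SCID hosts. Teratoma DNA can thus hold host cells. Each ES line is a single line, and nothing states whether repeat arrays or embryo arrays came from separate animals or cultures, so that every p-value below measures the spread between arrays, which may be technical.

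The input signal of the arrays was 3.07 to 7.34 times their background, and averaged over the probes of an island of a matrix gene the input was well above background on 68.4% to 100.0% of arrays (median 89.7%). Arrays of 1 tissue correlated with r from 0.81 to 0.96 across islands. The J1 array stood apart from the authors' own table (r = 0.113 across probes, against 0.894 to 0.991 for the other arrays), so results on undifferentiated cells are given with and without it. Mean scores over 376 X-linked islands were 0.15 to 0.29 on adult arrays labelled male and 0.91 to 1.87 on those labelled female, but 1.05 and 1.18 in the embryos of 8.5 and 9.5 dpc, both labelled male, and embryo results are therefore also given without these 2 arrays. The arrays lay on 23 slides scanned on 16 days, and no slide, day or software version held both an embryo and an adult tissue, nor any slide or day differentiated ES cells together with an embryo or with undifferentiated ES cells, so that within these the group and the batch cannot be told apart.

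Promoter sequences are shown for 5 genes whose islands span the annotated start, to let a reader see how dense in CpG the regions are that did and did not differ between differentiated ES cells and adult tissue. The first 3, Adamts20, Col16a1 and Col8a2, belong to genes with a higher island in differentiated ES cells. The last 2, Col5a1 and Timp3, belong to genes whose island did not pass the test there. Each run holds 250 bases before and 50 bases after the start given by RefSeq on GRCm38.p6, 5′ to 3′, with every CpG in capitals. The windows are chr15:94404301-94404600 on the minus strand, chr4:130047590-130047889 on the plus strand, chr4:126286544-126286843 on the plus strand, chr2:27886175-27886474 on the plus strand and chr10:86300162-86300461 on the plus strand. Positions of array islands below are those of the array files, which name no genome build and differ from GRCm38.p6, so the 2 sets of coordinates cannot be laid over each other here.
Adamts20: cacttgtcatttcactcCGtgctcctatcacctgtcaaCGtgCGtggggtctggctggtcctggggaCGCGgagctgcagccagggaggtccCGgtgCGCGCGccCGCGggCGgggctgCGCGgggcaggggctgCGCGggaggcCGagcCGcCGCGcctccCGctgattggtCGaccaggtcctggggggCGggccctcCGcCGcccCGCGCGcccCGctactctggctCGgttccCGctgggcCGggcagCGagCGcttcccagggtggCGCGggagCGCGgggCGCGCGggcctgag
Col16a1: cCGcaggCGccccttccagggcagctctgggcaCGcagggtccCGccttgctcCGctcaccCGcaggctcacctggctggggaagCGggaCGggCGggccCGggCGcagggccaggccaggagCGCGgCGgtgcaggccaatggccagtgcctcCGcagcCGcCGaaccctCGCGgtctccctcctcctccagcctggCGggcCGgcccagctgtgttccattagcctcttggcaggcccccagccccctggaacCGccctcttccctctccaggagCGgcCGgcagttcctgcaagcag
Col8a2: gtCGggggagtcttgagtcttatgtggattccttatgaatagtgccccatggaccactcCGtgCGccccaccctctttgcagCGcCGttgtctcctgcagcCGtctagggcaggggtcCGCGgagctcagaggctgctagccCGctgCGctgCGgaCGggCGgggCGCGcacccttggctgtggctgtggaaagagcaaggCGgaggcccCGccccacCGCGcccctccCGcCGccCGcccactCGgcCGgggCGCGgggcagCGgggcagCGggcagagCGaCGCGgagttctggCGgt
Col5a1: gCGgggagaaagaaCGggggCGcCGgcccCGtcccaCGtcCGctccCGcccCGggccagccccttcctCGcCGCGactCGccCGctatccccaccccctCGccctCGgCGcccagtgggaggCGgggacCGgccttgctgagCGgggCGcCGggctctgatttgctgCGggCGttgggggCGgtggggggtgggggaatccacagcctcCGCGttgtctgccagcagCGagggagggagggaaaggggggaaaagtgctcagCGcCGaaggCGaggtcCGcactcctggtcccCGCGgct
Timp3: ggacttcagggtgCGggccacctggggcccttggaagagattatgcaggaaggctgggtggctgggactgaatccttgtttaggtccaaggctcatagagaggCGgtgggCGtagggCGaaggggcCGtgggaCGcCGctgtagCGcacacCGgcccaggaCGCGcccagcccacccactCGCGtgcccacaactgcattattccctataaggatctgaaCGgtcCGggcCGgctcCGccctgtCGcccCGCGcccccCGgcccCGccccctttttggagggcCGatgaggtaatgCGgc

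These windows hold 41 CpG for Adamts20, 24 for Col16a1, 32 for Col8a2, 34 for Col5a1 and 24 for Timp3. Of the 56 genes, 36 had a promoter in the RefSeq table, with a median of 22 CpG in 300 bases against 7 over all 32851 promoters, of which 94.6% hold at least 1 CpG (a palindrome, read on both strands at once). The 8 genes with a promoter there and a start-spanning island higher in differentiated ES cells than in adult tissue had 10 to 41 CpG (median 24), with 1 promoter counted per gene. Fbln5, 1 of the 8, has another promoter with 8 CpG, below this range. The 14 other genes with a start-spanning island had 18 to 41 CpG, with the same median of 24.

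In adult tissue, most islands of matrix genes had low or intermediate scores, and a few lay at the top of the scale. Of the 65 islands, 11 scored below 0 on all 16 adult arrays, against a background of 29.8% of all islands. They were Col2a1 island 2, Col5a1, Col27a1, Col13a1, Col18a1, Mmp15, Mmp17, Adamts1, Adamts2, Adamts8 and Adamts15. The 4 islands of fibrillar collagens, from 3 genes, had adult means of -0.69 to -0.25. The median over all islands of an adult array ran from -0.27 to -0.16. Col2a1 island 1 (-0.25) and Col27a1 (-0.28) were close to that level, and Col5a1 and Col2a1 island 2 were below it. Col5a1, a chain of the fibrillar collagen V, scored from -1.05 to -0.32 on the 16 adult arrays, with a median of -0.63. Col2a1, the main collagen of cartilage, scored from -0.68 to 0.20 on the 16 adult arrays, with a median of -0.23, at its start and from -1.48 to -0.12 on the 16 adult arrays, with a median of -0.70, at its island 2395 to 2821 bases downstream. Neither the start of Col5a1 nor the downstream Col2a1 island was above 0 on any adult array.

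On every adult array, 5 islands (7.69%) scored above 0.75, a share close to the 7.37% of all islands. Of the 5, 4 lie inside the gene, and Adamts14 island 1 has no distance in the annotation. Both islands of Col6a2, a chain of the beaded filament collagen VI, lie inside the gene, 8676 to 8862 bases and 26434 to 27061 bases downstream of the start, and had adult means of 2.86 ± 0.25 (SD, n = 16) and 2.77 ± 0.21 (SD, n = 16). Col15a1 island 2, 37208 to 37590 bases inside the gene of a basement membrane collagen, averaged 2.50 ± 0.62 (SD, n = 16), Adamts14 island 1, of a procollagen N-proteinase, 2.41 ± 0.34 (SD, n = 16), and Matn1, a cartilage matrix protein, 1.99 ± 0.34 (SD, n = 16). The same genes show that islands of 1 gene need not be alike: Col15a1 island 1, close to the start, averaged -0.39 ± 0.36 (SD, n = 16) and Adamts14 island 2 -0.30 ± 0.27 (SD, n = 16). With limits of 0.5 and 1 in place of 0.75, 6 and 5 islands were above the limit on all adult arrays.

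The 8 adult tissues were compared with the spread between the 2 arrays of each. No island of a matrix gene passed the moderated F test of limma at an adjusted p under 0.05, against a background of 0.0808% of all islands, and 3 of the 65 had an unadjusted p under 0.05. The largest F belonged to Mmp23, a metalloproteinase of unusual domain structure, which scored 1.36 and 1.30 in colon and averaged 0.022 in muscle (adjusted p = 0.26). Both colon arrays were above all 14 other adult arrays at this island. Matn4 and Adamts18 were also highest in colon, at means of 2.10 and 0.14, and lowest in pancreas at 0.75 and in kidney at -0.53. Their adjusted p was 1.00.

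**Figure D1:**
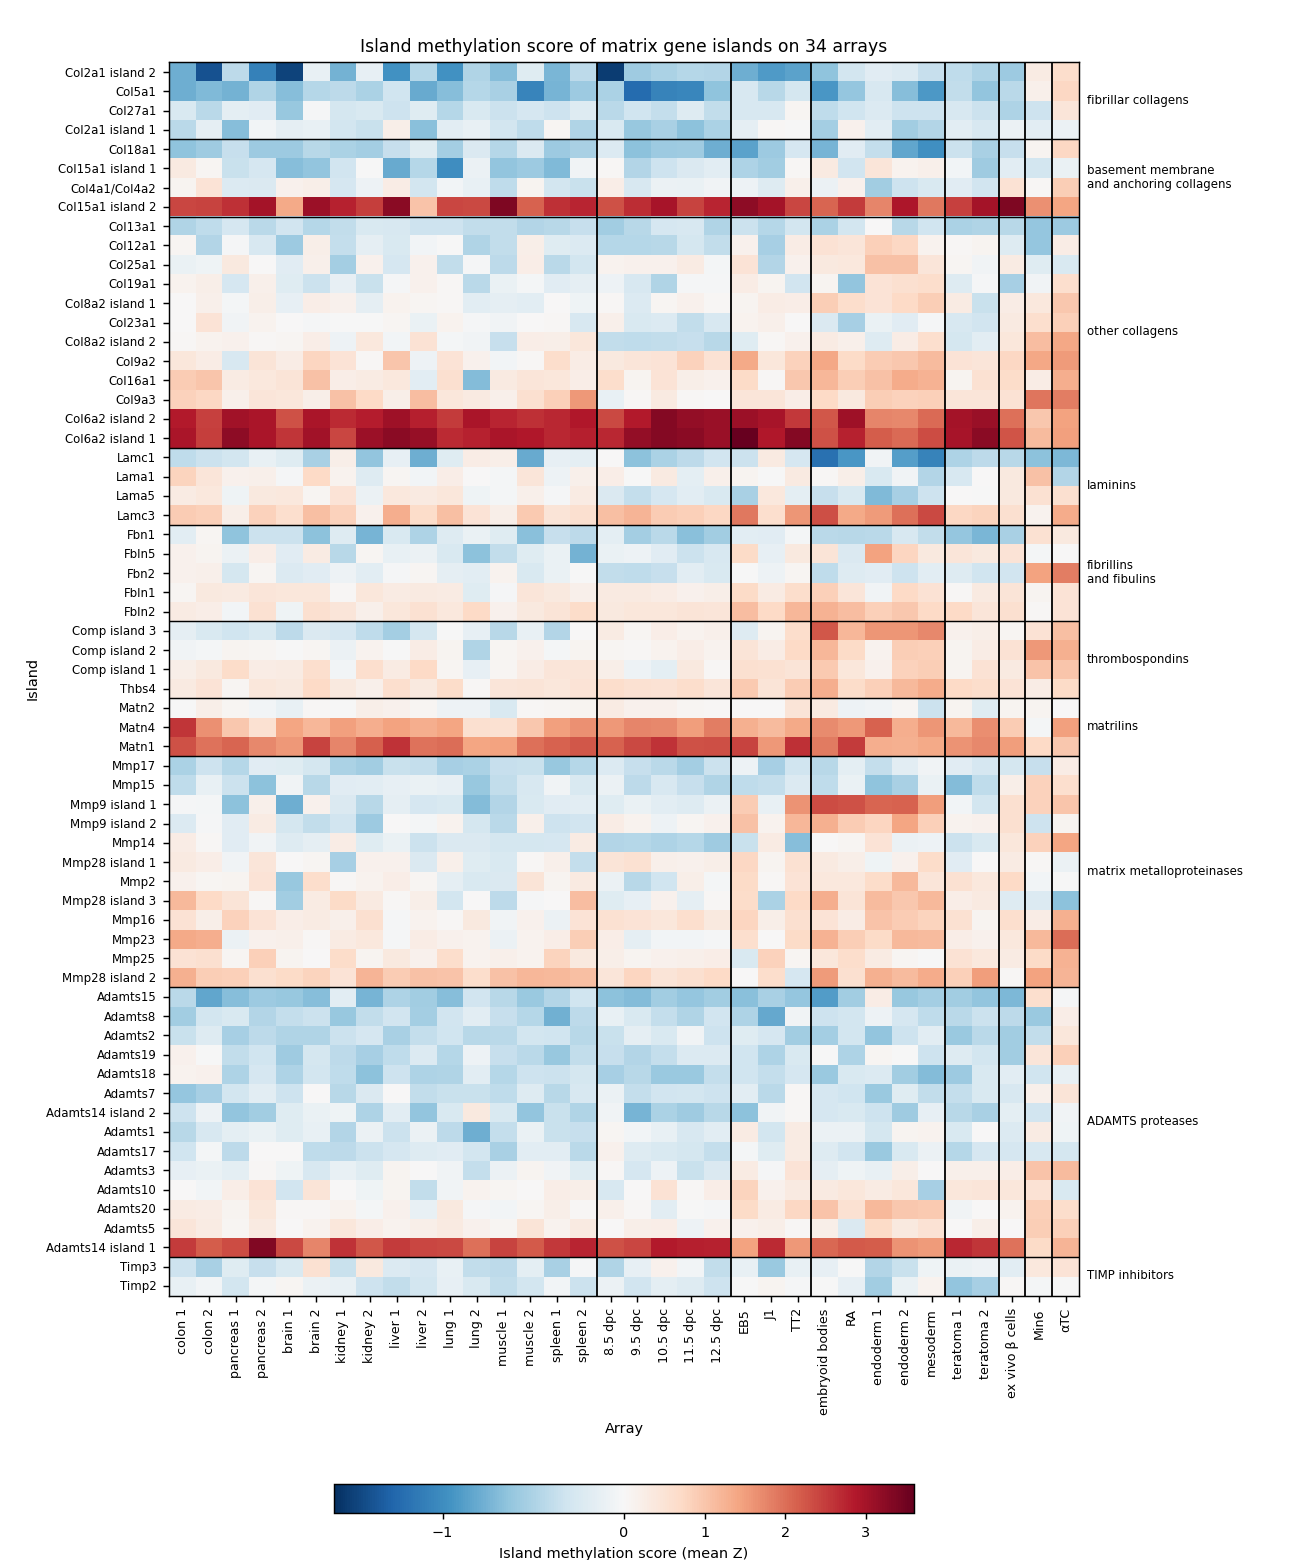
Island methylation score (colour, mean Z, with a steeper colour scale below 0 than above it) of 64 of the 65 islands of matrix genes (rows, ordered by role) on the 34 arrays (columns, ordered by group). The 5 islands that are above 0.75 on every adult array form dark bands, and the differentiated ES columns are redder than the adult and embryo columns at Mmp9 island 1 and Comp island 3.

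Differentiated ES cells scored above adult tissue at many of these islands. In the limma fit, 20 of the 65 islands (30.8%) were higher in differentiated ES cells at an adjusted p under 0.05, where 14.4% of all islands were higher, and 5 (7.69%) were lower, where 8.73% of all islands were lower. The median difference over the 65 islands was 0.12, beside -0.0099 over all 13616 islands. Per array, 13 to 26 of the 65 islands scored above 0.75 in differentiated ES cells, against 5 to 13 in adult tissue and 6 to 8 in embryos. Retinoic acid treated cells had the 13 and endoderm replicate 2 the 26. Undifferentiated EB5 had 15, J1 7 and TT2 13 of the 65 above 0.75, where 10.5%, 11.1% and 10.7% of all islands were. EB5 and TT2 thus reached the level of the retinoic acid array. Among differentiated arrays, 12.4% to 16.7% of all islands lay above 0.75, and 10.1% to 14.5% among adult arrays. The 5 differentiated arrays lay entirely above the 16 adult arrays at 8 islands (background 2.51%) and entirely below them at 1, Lama5 (background 0.911%).

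**Figure D2:**
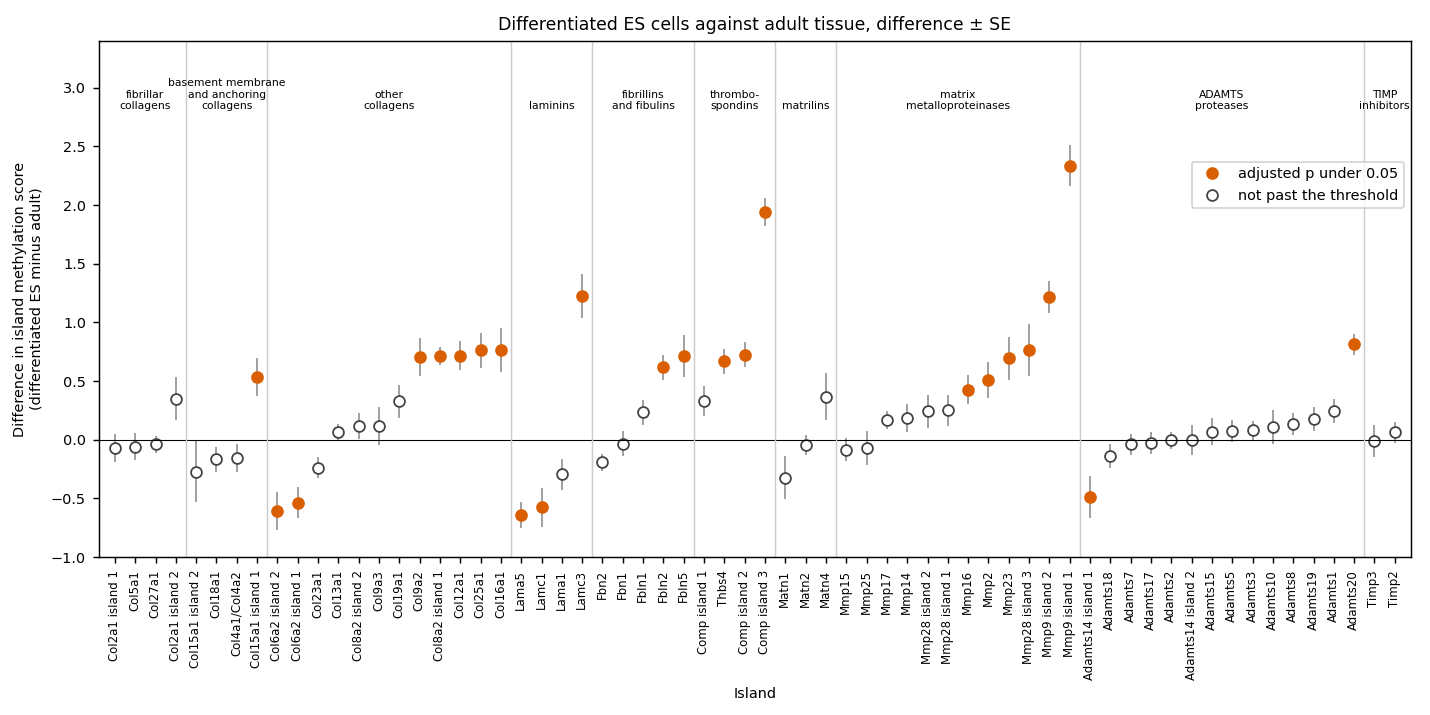
Difference in island methylation score between differentiated ES cells (n = 5) and adult tissue (n = 16) for 64 of the 65 islands, with its SE from limma, grouped by the role of the gene. Filled points passed an adjusted p of 0.05: 19 of those drawn lie above 0, led by Mmp9 island 1 and Comp island 3, and 5 below.

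Among the proteases, the higher islands were mostly those of MMPs. Of the 12 MMP islands 6 were higher and none lower, with a median difference of 0.34. Mmp9 (gelatinase B), which degrades gelatin and basement membrane collagen, had the largest difference of all 65 islands, at island 1 (chr2:164640328-164641067, 896 to 1590 bases downstream of the annotated start). Its score was from -0.78 to 0.19 on the 16 adult arrays, with a median of -0.24, and 2.34 in embryoid bodies, 2.30 after retinoic acid, 2.09 and 2.13 in the endoderm arrays and 1.49 in mesoderm. All 5 differentiated arrays were far above the highest adult array. The difference was 2.33 ± 0.17 (SE, adjusted p = 1.2e-10). Mmp9 island 2, 5082 to 5340 bases downstream, scored 1.28 in embryoid bodies, 0.91 after retinoic acid, 0.76 and 1.42 in the endoderm arrays and 0.87 in mesoderm, again above every adult array (highest 0.31), with a difference of 1.22 ± 0.14 (SE, adjusted p = 1.7e-07).

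Each of the 7 probes of Mmp9 island 1 had a higher mean in differentiated ES cells, with differences from 1.73 at the first probe to 2.69 at the third. The DNA was sonicated into fragments that neighbouring probes can share, so the probes do not place the methylation within the island. Means of the last 6 probes ran from 1.98 to 2.56 in differentiated ES cells and from -0.53 to 0.16 in adult tissue. The first probe, 896 bases downstream, was the most scattered (1.23 ± 1.41, SD, n = 5) and had an input well above background on 44.1% of arrays. At this probe the differentiated arrays ran from -1.07 to 2.37 and the adult arrays from -2.05 to 0.86.

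Other MMP islands changed less. Mmp28 (epilysin) has 3 islands: island 3, 19985 to 20299 bases from the start, was higher by 0.77 ± 0.22 (SE, adjusted p = 0.011), while the start island 1 and island 2 differed by 0.25 and 0.24 (adjusted p = 0.17 and 0.21). Mmp23, whose island spans the start, scored 1.24 in embryoid bodies, 0.90 after retinoic acid, 0.70 and 1.15 in the endoderm arrays and 1.13 in mesoderm, while the adult arrays ran from -0.092 to 1.36 on the 16 adult arrays, with a median of 0.18. The differentiated arrays were below both colon arrays and, apart from endoderm replicate 1 against spleen replicate 2, above all other adult arrays. The difference was 0.69 ± 0.19 (SE, adjusted p = 0.0067). Mmp2 (gelatinase A) was higher by 0.51 ± 0.15 (SE, adjusted p = 0.015) and Mmp16, a membrane-type MMP, by 0.43 ± 0.13 (SE, adjusted p = 0.013). Both calls depended on endoderm arrays. Mmp2 lost its call without endoderm replicate 2 (adjusted p = 0.11) and Mmp16 without either of them (up to 0.062). Mmp14, the membrane-type MMP that activates the precursor of Mmp2, differed by 0.18 ± 0.12 (SE, adjusted p = 0.28) and did not pass. Mmp15, Mmp17 and Mmp25, with differences of -0.087, 0.17 and -0.071, did not pass either.

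Of the 14 ADAMTS islands 1 was higher and 1 lower, with a median difference of 0.073. The higher one was Adamts20, a protease that cleaves the proteoglycan versican and is known for a mouse coat-colour mutation. It has 13 probes from 100 bases before to 1087 bases after the start and scored 1.04 in embryoid bodies, 0.56 after retinoic acid, 1.16 and 0.96 in the endoderm arrays and 0.94 in mesoderm. The adult arrays ran from -0.12 to 0.40, with a median of 0.094, below all of the differentiated arrays. The difference was 0.81 ± 0.090 (SE, adjusted p = 1.1e-07). Adamts14 island 1 was lower by 0.49 ± 0.18 (SE, adjusted p = 0.049), close to the threshold, and lost its call without embryoid bodies, endoderm replicate 2 or mesoderm (adjusted p up to 0.17). Adamts1, which cleaves aggrecan and versican, scored -0.091 in embryoid bodies, -0.091 after retinoic acid, -0.28 and 0.10 in the endoderm arrays and 0.13 in mesoderm against an adult mean of -0.29 ± 0.19 (SD, n = 16), and its difference of 0.25 ± 0.10 (SE, adjusted p = 0.079) did not pass. The remaining 11 ADAMTS islands differed by -0.14 to 0.18. The inhibitors Timp2 and Timp3 were at -0.19 ± 0.15 (SD, n = 16) and -0.20 ± 0.29 (SD, n = 16) in adult tissue and differed by 0.063 ± 0.087 (SE, adjusted p = 0.65) and -0.0076 ± 0.14 (SE, adjusted p = 0.98) in differentiated ES cells.

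Thrombospondins gave 3 higher islands of 4. Comp, the cartilage oligomeric matrix protein, is a thrombospondin of cartilage and tendon, and its 3 islands showed a larger gain with distance into the gene. Island 1 spans the start, island 2 lies 1008 to 1858 bases and island 3 (chr8:73305107-73305756) 2583 to 3188 bases downstream, and their differences were 0.33 ± 0.13 (SE, adjusted p = 0.061), 0.73 ± 0.11 (SE, adjusted p = 1.1e-05) and 1.94 ± 0.12 (SE, adjusted p = 5.7e-12). Island 1 did not pass the test. At island 3 the score was from -0.54 to 0.028 on the 16 adult arrays, with a median of -0.26, and 2.25 in embryoid bodies, 1.20 after retinoic acid, 1.60 and 1.60 in the endoderm arrays and 1.73 in mesoderm. The groups did not overlap. All 6 probes of island 3 differed by 1.68 to 2.24. Within island 2, the first probe differed by 0.23, the probe 1730 bases from the start by 1.75 and the last by 1.25. Thbs4, a secreted thrombospondin of tendon and muscle, was higher by 0.67 ± 0.10 (SE, adjusted p = 1.9e-05), with 1.29 in embryoid bodies, 0.66 after retinoic acid, 0.87 and 1.17 in the endoderm arrays and 1.33 in mesoderm.

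**Figure D3:**
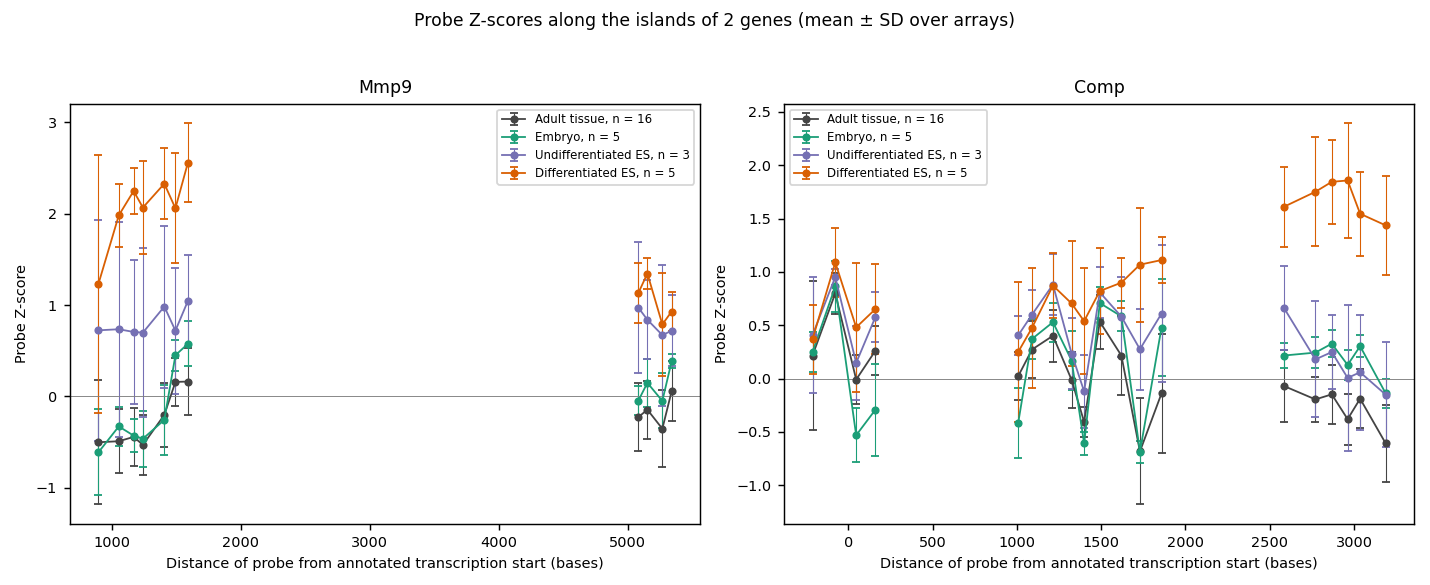
Mean probe Z-score (points, bars ± SD) against distance from the annotated start for the 2 islands of Mmp9 and the 3 islands of Comp, in adult tissue (n = 16), embryos (n = 5), undifferentiated (n = 3) and differentiated ES cells (n = 5). Differentiated ES cells have the highest mean at every probe of Mmp9 island 1 and Comp island 3, and lie closer to the other groups at the start of Comp. At some but not all probes of Mmp9 island 1 their bars overlap those of undifferentiated ES cells.

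Basement membrane genes went both ways. Lamc3, the laminin gamma 3 chain, spans its start and scored from 0.15 to 1.31 on the 16 adult arrays, with a median of 0.74, and 2.33 in embryoid bodies, 1.37 after retinoic acid, 1.53 and 1.99 in the endoderm arrays and 2.39 in mesoderm, so that every differentiated array was above every adult array. Undifferentiated EB5 (1.91) and TT2 (1.58) were also above every adult array at Lamc3, and J1 (0.60) was not. The difference of Lamc3 between differentiated ES cells and adult tissue was 1.22 ± 0.19 (SE, adjusted p = 1.5e-05). Lama5 and Lamc1, chains found in many basement membranes, were lower. Lama5 scored -0.36 in embryoid bodies, -0.25 after retinoic acid, -0.71 and -0.53 in the endoderm arrays and -0.33 in mesoderm, all below the lowest adult array (-0.088), with a difference of -0.64 ± 0.11 (SE, adjusted p = 8.4e-05). The call of Lama5 was lost with slide or scan day as a fixed block (adjusted p up to 0.14). Lamc1 scored -1.19 in embryoid bodies, -0.94 after retinoic acid, -0.059 and -0.88 in the endoderm arrays and -1.07 in mesoderm, and from -0.81 to 0.27 on the 16 adult arrays, with a median of -0.19. Apart from endoderm replicate 1, the differentiated arrays were below every adult array. Lamc1 had a difference of -0.57 ± 0.17 (SE, adjusted p = 0.012), and without embryoid bodies its adjusted p was 0.061. Lama1, a chain of early embryonic basement membranes, differed by -0.29 ± 0.13 (SE, adjusted p = 0.11). The shared island of Col4a1 and Col4a2, the chains of the main basement membrane collagen, scored -0.061 ± 0.26 (SD, n = 16) in adult tissue and differed by -0.16 ± 0.12 (SE, adjusted p = 0.39). Col18a1, whose C-terminal fragment is endostatin, was below 0 on all adult and all differentiated arrays and differed by -0.16 ± 0.11 (SE, adjusted p = 0.28). Only Col15a1 island 1 of the basement membrane collagens passed, higher by 0.54 ± 0.16 (SE, adjusted p = 0.014), and not without embryoid bodies or endoderm replicate 1 (adjusted p up to 0.057).

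Of the 12 islands of other collagens 5 were higher and 2 lower, while none of the 4 fibrillar collagen islands passed, with differences from -0.066 to 0.35. The 5 were Col16a1 and Col12a1, collagens that associate with fibrils or other matrix, Col25a1, a transmembrane collagen, Col8a2 island 1, of a network collagen of the cornea, and Col9a2, a chain of the cartilage collagen IX. Col8a2 island 1 spans its start and scored from -0.17 to 0.24 on the 16 adult arrays, with a median of 0.024, and 0.88 in embryoid bodies, 0.64 after retinoic acid, 0.50 and 0.72 in the endoderm arrays and 0.90 in mesoderm. The groups did not overlap, and the difference was 0.72 ± 0.080 (SE, adjusted p = 1.1e-07). The groups did not overlap at Col25a1 either, with a difference of 0.76 ± 0.15 (SE, adjusted p = 0.00027), whereas Col12a1 (mesoderm at 0.14) and Col16a1 (retinoic acid at 0.89) fell within the adult range on 1 array at least. Their differences were 0.72 ± 0.13 (SE, adjusted p = 9.7e-05) and 0.77 ± 0.18 (SE, adjusted p = 0.0027). At Col9a2 undifferentiated cells scored 1.37 in EB5, 0.39 in J1 and 0.83 in TT2. The endoderm arrays (0.91 and 0.97) and mesoderm (1.13) were below EB5, their labelled parent. The difference of Col9a2 between differentiated ES cells and adult tissue was 0.71 ± 0.16 (SE, adjusted p = 0.0014). In contrast, Col6a2, above 0.75 on every adult array, was lower by 0.54 ± 0.13 (SE, adjusted p = 0.0031) at island 1 and by 0.61 ± 0.16 (SE, adjusted p = 0.0054) at island 2. At island 2, retinoic acid treated cells scored 3.06, above the adult median of 2.81, and the other 4 arrays 1.74 to 2.23, below the adult minimum of 2.28. All differentiated scores of Col6a2 remained above 0.75.

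Elastic fibre genes gave 2 higher islands of 5. Fbln2 scored 1.25 in embryoid bodies, 1.10 after retinoic acid, 0.85 and 0.98 in the endoderm arrays and 0.73 in mesoderm, all above the highest adult array (0.71), and its difference was 0.62 ± 0.11 (SE, adjusted p = 8.3e-05). Fbln5, which is needed to assemble elastic fibres, ranged from -0.23 after retinoic acid to 1.44 in endoderm replicate 1, with a difference of 0.71 ± 0.18 (SE, adjusted p = 0.0033). Fbln1, Fbn1 and Fbn2 differed by 0.23, -0.033 and -0.19 (adjusted p = 0.12, 0.85 and 0.061). None of the 3 matrilin islands passed. Matn1, at 1.99 ± 0.34 (SD, n = 16) in adult tissue, differed by -0.32 ± 0.18 (SE, adjusted p = 0.22).

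By position, 11 of the 38 islands that span a start and 9 of the 22 downstream of one were higher, and 1 and 2 were lower. The median difference was 0.092 at starts and 0.28 downstream. The 22 downstream islands belong to 17 genes and include both Mmp9 islands and Comp islands 2 and 3. Shares and medians by position were not counted over all islands, so the contrast cannot be read as a trait of matrix genes. Of the 11 islands below 0 on all adult arrays, none was called higher, and their differences ran from -0.16 to 0.35. Over all islands 14.4% were higher, and the share among all islands below 0 on every adult array was not counted. With so few islands, the absence of a call says little about matrix genes. Where the log2 ratio was centred on the median of the array and not divided by its SD, 13 islands were higher and 6 lower, and the lost calls included those of Mmp2, Mmp16, Mmp23, Mmp28 island 3, Col15a1 island 1, Col16a1 and Adamts14 island 1. The share of all islands called in that fit is not given here. With another background correction, normexp on the median signals, the lost calls included those of Mmp2, Mmp16, Thbs4, Comp island 2, Col8a2 island 1, Adamts14 island 1 and both Col6a2 islands.

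Both a differentiated ES array and an adult array were present on 2 slides, which paired endoderm replicate 2 with pancreas replicate 1 and embryoid bodies with brain replicate 2. Within them the differences were 2.79 and 2.19 for Mmp9 island 1, 1.92 and 2.47 for Comp island 3, 1.79 and 1.24 for Lamc3, 0.85 and 0.99 for Adamts20, -0.47 and -0.43 for Lama5 and -1.28 and -0.70 for Col6a2 island 2. Of the 25 islands called, 25 had the sign of the comparison over all arrays in the first pair and 23 in the second, where Adamts14 island 1 was at 0.30 and Mmp2 at -0.28. The paired arrays were part of the fit that chose the 25 islands, so this agreement in sign is no separate check. With the slide as a fixed block, the counts were 13 higher and 3 lower, without a share over all islands to set them against. Of the 25 calls, 15 were kept. The lost ones included Lama5, Col12a1, Col16a1, Col25a1, Fbln5, Mmp2, Mmp16, Mmp28 island 3 and Adamts14 island 1. With the scan day as a fixed block 16 of the 25 were kept, and the lost ones included Lama5, Lamc1, Col15a1 island 1, Col25a1 and Mmp28 island 3. Calls that held under every alternative in which the island was scored and without each differentiated array in turn were those of Mmp9 islands 1 and 2, Comp island 3, Lamc3, Adamts20, Fbln2 and Col9a2.

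**Figure D4:**
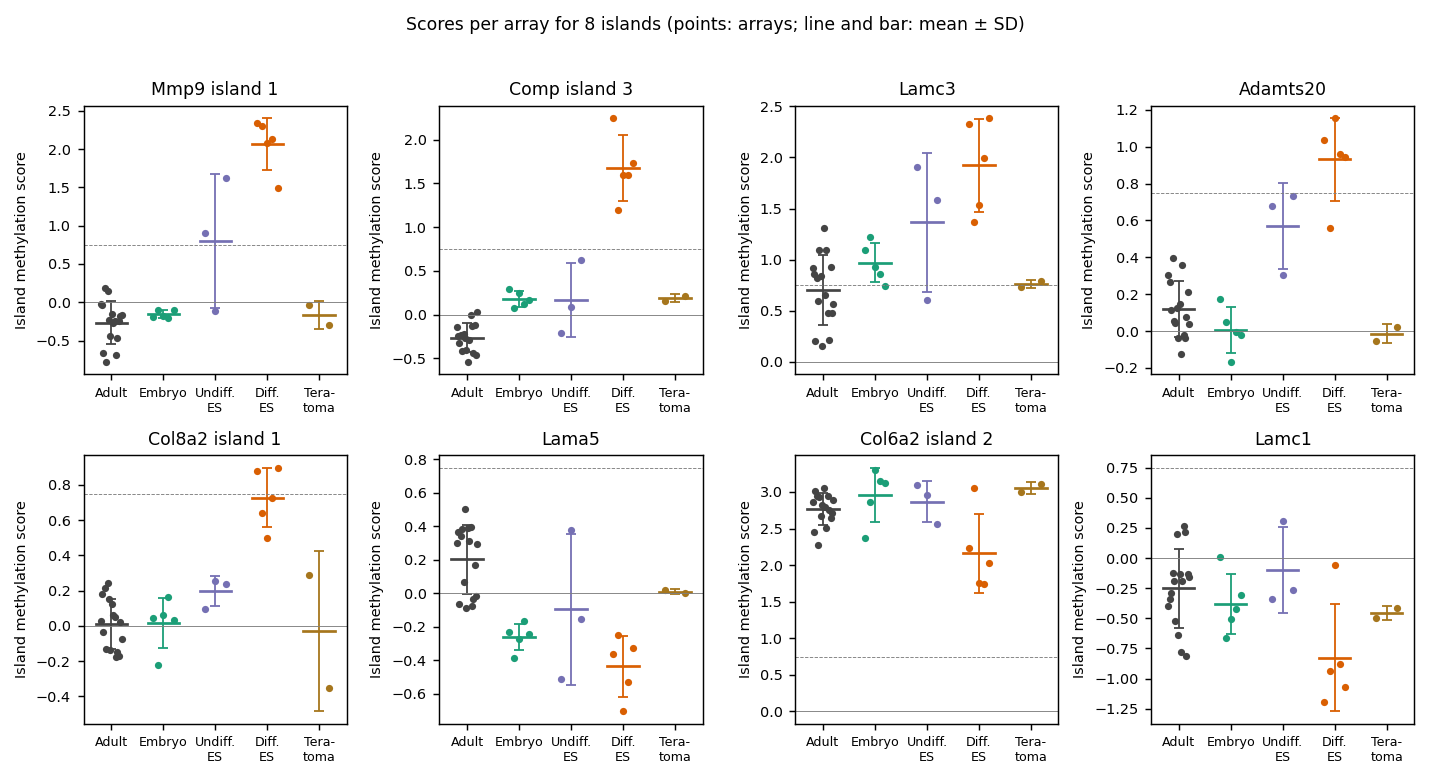
Island methylation score on each array (points) with the mean and SD of each group, for 5 islands that were higher and 3 that were lower in differentiated ES cells than in adult tissue. The dashed line marks 0.75. At Mmp9 island 1 and Comp island 3 all 5 differentiated arrays lie above every adult, embryo and teratoma array.

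In undifferentiated ES cells, a few of these islands were already above adult tissue. With all 3 lines, 4 of the 65 islands were higher, where 0.984% of all islands were, and 1 was lower, where 1.31% were. The higher ones were both Mmp9 islands, Fbln2 and Adamts20. Mmp9 island 1 scored 0.90 in EB5, -0.12 in J1 and 1.62 in TT2, Fbln2 1.11 in EB5, 0.70 in J1 and 1.20 in TT2 and Adamts20 0.68 in EB5, 0.31 in J1 and 0.73 in TT2. EB5 and TT2 lay above the highest adult array at all 3 islands, and J1 within the adult range. Their differences were 1.07 ± 0.21 (SE, adjusted p = 0.010), 0.64 ± 0.13 (SE, adjusted p = 0.010) and 0.45 ± 0.11 (SE, adjusted p = 0.027). Mmp28 island 2 was lower by 0.81 ± 0.17 (SE, adjusted p = 0.011), with 0.011 in EB5, 0.63 in J1 and -0.27 in TT2. Without J1, 12 islands were higher (background 4.58%) and 3 lower (background 3.87%), whereas without EB5 or without TT2 none passed in limma (adjusted p up to 0.42 for the 5 islands), so these calls need both lines. None of the 5 calls was kept with slide or scan day as a fixed block (adjusted p of Mmp9 island 1 up to 0.98 over the alternatives), and with the software version as a block that of Mmp9 island 2 was. Of the 65 islands, 22 had an unadjusted p under 0.05 with all 3 lines, a count with no share over all islands beside it. At Comp island 3 the lines scored -0.21 in EB5, 0.090 in J1 and 0.63 in TT2, with a difference from adult tissue of 0.43 ± 0.15 (SE, adjusted p = 0.11).

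Between differentiated and undifferentiated ES cells, 4 islands were higher and 1 lower. Against undifferentiated ES cells, with background shares of 3.51% higher and 1.92% lower, differentiated cells were higher at Comp island 3 by 1.51 ± 0.17 (SE, adjusted p = 4.2e-06), at Mmp9 island 1 by 1.27 ± 0.25 (SE, adjusted p = 0.0029), at Mmp28 island 2 by 1.05 ± 0.20 (SE, adjusted p = 0.0018) and at Col8a2 island 1 by 0.53 ± 0.11 (SE, adjusted p = 0.0054). Col6a2 island 1 was lower by 0.93 ± 0.19 (SE, adjusted p = 0.0033). Fbln2 and Mmp9 island 2 differed by -0.022 and 0.25 and did not pass (adjusted p = 0.96 and 0.52). Without J1, 5 islands were higher and 1 lower, and the 5 calls held. The background shares of that fit are not given here. No slide or scan day held both groups, and with the slide as a fixed block Comp island 3 and Mmp9 island 1 kept their calls while the other 3 lost them. These 5 calls were also lost when only ES arrays were fitted, where none of the 65 islands passed.

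Set against the line named as their parent in the labels, all 5 differentiated cultures moved the same way at the 5 islands called above. Those islands were chosen in a fit that used the same culture and parent arrays, so this agreement is no separate check. Comp island 3 rose by 0.57 to 1.94 from parent to culture, with the smallest step after retinoic acid. Mmp9 island 1 was higher by 0.59 to 1.23, Mmp28 island 2 by 0.85 to 1.80 and Col8a2 island 1 by 0.40 to 0.80, and Col6a2 island 1 differed by -1.54 to -0.54. In all, 12 of the 65 islands were higher in all 5 pairs, against 11.8% of all islands, and 13 were lower, against 16.1%. The pairs share 2 parent arrays and were not tested.

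Few of these islands passed the test between embryos and adult tissue. In embryos, 1 island was higher (background 5.17%) and 5 were lower (background 3.47%). Comp island 3 scored 0.29, 0.070, 0.24, 0.12 and 0.17 in the embryos from 8.5 to 12.5 dpc, all above the highest adult array (0.028) yet far below the differentiated ES cells, with a difference of 0.44 ± 0.12 (SE, adjusted p = 0.016). The lower islands were Col9a3, Col8a2 island 2, Lama5, Mmp14 and Fbn2. Col8a2 island 2, 14328 to 14780 bases downstream of the start, scored -0.40, -0.40, -0.39, -0.37 and -0.45 in the embryos from 8.5 to 12.5 dpc, at or below the level of the lowest adult array (-0.37), and differed by -0.51 ± 0.11 (SE, adjusted p = 0.0025). Mmp14 scored -0.47, -0.45, -0.49, -0.46 and -0.57 in the embryos from 8.5 to 12.5 dpc, below the adult minimum of -0.34, and differed by -0.39 ± 0.12 (SE, adjusted p = 0.039). Lama5 and Col9a3 differed by -0.46 ± 0.11 (SE, adjusted p = 0.0077) and -0.55 ± 0.16 (SE, adjusted p = 0.030), and Fbn2 by -0.25 ± 0.074 (SE, adjusted p = 0.029). Only the calls of Col8a2 island 2 and Lama5 held without each embryo in turn. Without the embryos of 8.5 and 9.5 dpc, no island was higher and Col8a2 island 2 was the 1 lower. The other calls were lost without single embryos: Comp island 3 without 8.5 or 10.5 dpc (adjusted p up to 0.057), Fbn2 without 8.5, 9.5 or 10.5 dpc (up to 0.11), Col9a3 without any but 10.5 dpc (up to 0.096) and Mmp14 without any 1 of the 5 (up to 0.089). No island passed with slide, scan day or software version as a fixed block.

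Compared with embryos, differentiated ES cells were higher at 22 islands (33.8%, background 11.8%) and lower at 4 (6.15%, background 9.29%), and the 2 comparisons of differentiated cells share the same 5 arrays. At 18 islands all differentiated arrays were above all embryos, against a background of 8.67%. Mmp9 island 1 scored -0.19, -0.10, -0.17, -0.21 and -0.095 in the embryos from 8.5 to 12.5 dpc, and the difference was 2.22 ± 0.22 (SE, adjusted p = 4.2e-08). Comp island 3 differed by 1.49 ± 0.15 (SE, adjusted p = 4.8e-08), Mmp28 island 3 by 1.06 ± 0.27 (SE, adjusted p = 0.0060) and Mmp23, at 0.25, -0.14, -0.048, -0.042 and -0.023 in the embryos from 8.5 to 12.5 dpc, by 1.03 ± 0.23 (SE, adjusted p = 0.0018). Thus 7 of 12 MMP islands and all 4 thrombospondin islands were higher than in embryos. The lower islands were both of Col6a2, Adamts14 island 1 and Matn1. Their differences were -0.78 ± 0.16 (SE, adjusted p = 0.00094) and -0.80 ± 0.19 (SE, adjusted p = 0.0038) for Col6a2, -0.71 ± 0.22 (SE, adjusted p = 0.023) for Adamts14 and -0.68 ± 0.23 (SE, adjusted p = 0.032) for Matn1. Adamts14 island 1 was lost without the embryo of 10.5, 11.5 or 12.5 dpc, endoderm replicate 2 or mesoderm (adjusted p up to 0.070), and Matn1 without any embryo but that of 8.5 dpc, without either endoderm array or without mesoderm (up to 0.094). Among the higher islands, Col25a1 was lost without any embryo but that of 11.5 dpc or without either endoderm array (up to 0.12), Fbln5 without endoderm replicate 1 (0.061) and Mmp28 island 2 without embryoid bodies (0.0503). Without the embryos of 8.5 and 9.5 dpc, 20 islands were higher and 3 lower, and with the slide as a fixed block only Mmp9 island 1 and Comp island 3 passed. The shares over all islands in these fits are not given here.

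Teratomas, which form from ES cells in a host, were set against adult tissue too. None of the 65 islands passed against adult tissue in limma, where 0.176% of all islands were higher and 0.0147% lower, and 7 had an unadjusted p under 0.05. The methods' test called none. Mmp9 island 1 scored -0.038 and -0.30 and Comp island 3 0.15 and 0.22, and on the 2 arrays 7 and 8 of the 65 islands were above 0.75, as in adult tissue. The differences were 0.098 ± 0.25 (SE, adjusted p = 0.93) and 0.45 ± 0.17 (SE, adjusted p = 0.49). Both teratomas lay within the adult range at Mmp9 island 1 and above it at Comp island 3, at the level of the embryos. Undifferentiated J1, the line named in their labels, itself scored -0.12 at Mmp9 island 1 and 0.090 at Comp island 3. No culture differentiated in vitro was labelled as derived from J1. The ES line and growth in a host therefore cannot be told apart here. The share of host cells in the tumours was not measured.

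In the pancreatic lines, each with 1 array and thus no test, many of these islands were above ex vivo β cells. Of the 65 islands 32 (49.2%) were higher in both Min6 and αTC than in β cells, against 25.0% of all islands, and 15 (23.1%) were lower in both, against 55.3%. Both lines exceeded all 16 adult arrays at 24 islands (36.9%, against 12.3% of all), and both were above 0.75 at 15, or 23.1% against 16.3%. Just 1 island was above 0.75 in both and below 0 in β cells, against 2.75% of all islands. It was Fbn2, a fibrillin of developing microfibrils, at 1.45 in Min6, 1.83 in αTC and -0.30 in β cells, and at -0.41 to -0.16 in differentiated ES cells. The next among islands below 0 in β cells were Adamts19 (0.43 in Min6 and 0.86 in αTC), Col5a1 (0.19 and 0.75), Col2a1 island 2 (0.29 and 0.63), Fbn1 (0.56 and 0.34) and Timp3 (0.38 and 0.51). These 6 islands had differences of -0.19 to 0.35 between differentiated ES cells and adult tissue, none past the threshold. Mmp9 island 1 and Comp island 3 scored 0.82 and 0.51 in Min6 and 0.99 and 1.07 in αTC, beside 0.58 and 0.061 in β cells. The islands above 0.75 on every adult array went the other way. Both lines were below the lowest adult array at both Col6a2 islands, Adamts14 island 1 and Matn1, and within the adult range at Col15a1 island 2. The share of all islands at which both lines fell below the adult range was not counted, so this fall is not shown to be particular to matrix genes. At the Col6a2 islands β cells, with 2.27 and 1.98, were below the adult range as well, but above both lines.

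**Figure D5:**
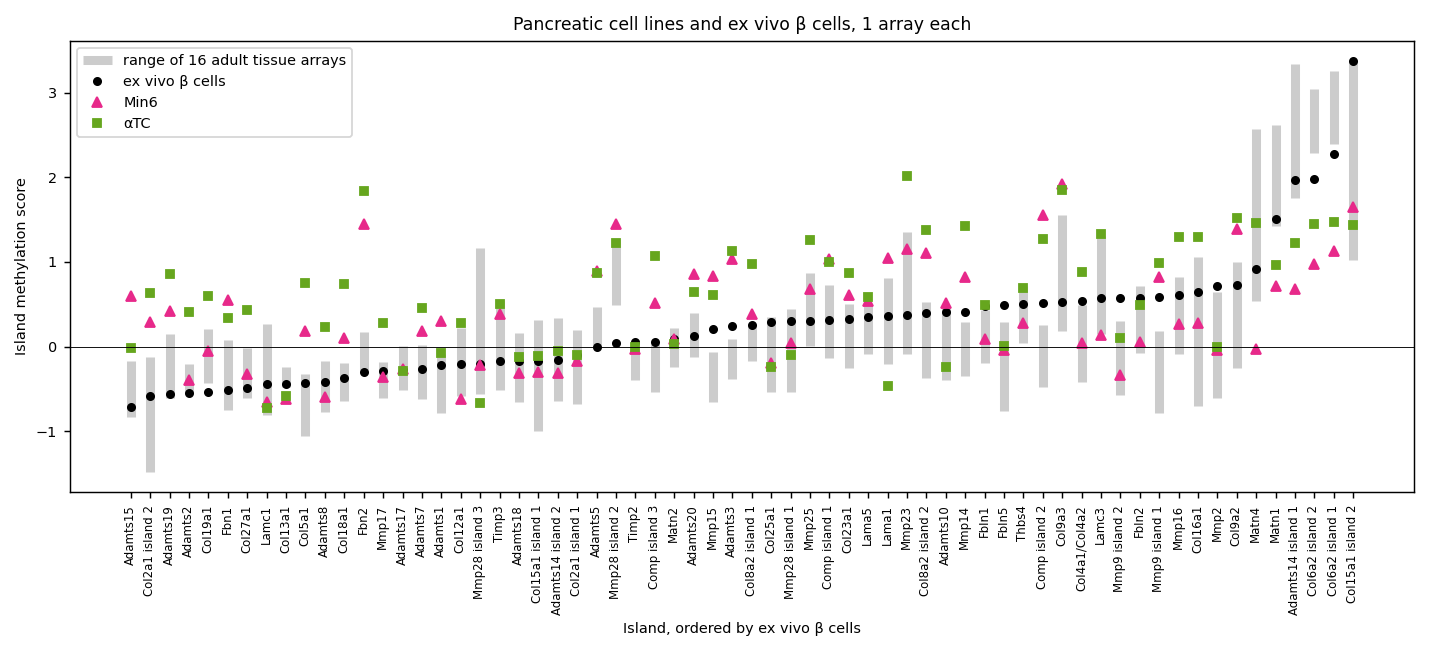
Island methylation score in ex vivo β cells, Min6 and αTC (1 array each) for 64 of the 65 islands, ordered by the β cell score, with the range of the 16 adult arrays as grey bars. Both lines lie above the adult range and β cells at Fbn2 and below it at Col6a2, Adamts14 island 1 and Matn1.

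Other matrix genes that the name rule leaves out, such as proteoglycans, integrin receptors, lysyl oxidases and collagen-modifying enzymes, were counted for comparison. Of 100 such genes, 64 had 79 scored islands. Against adult tissue, 14 of these (17.7%) were higher in differentiated ES cells and 4 (5.06%) lower, with a median difference of 0.074. The shares were 14.4% and 8.73% over all islands, and 30.8% and 7.69% for the islands of the name rule given above. The largest rises were at Itgb4, the integrin beta 4 chain of hemidesmosomes (0.69 ± 0.13, SE, adjusted p = 0.00016), and Loxl1, an elastin crosslinking enzyme (0.63 ± 0.14, SE, adjusted p = 0.0017). Against embryos, 16 (20.3%, background 11.8%) were higher in differentiated ES cells and 7 (8.86%, background 9.29%) lower. Against undifferentiated ES cells 3 were higher (3.80%, background 3.51%). Embryos were higher than adult tissue at 3 (3.80%, background 5.17%) and lower at 6 (7.59%, background 3.47%). None passed in limma between undifferentiated ES cells or teratomas and adult tissue.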

How the data were processed

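DNA bound by the antibody (Cy5) and input DNA (Cy3) were hybridised on 34 Agilent CpG island arrays with 97651 or 88737 probes. Per the file headers, the authors' Feature Extraction software subtracted the local background, applied a linear dye normalisation and deposited log10 ratios of bound over input, which served as the starting values. Median spot and background intensity, also deposited, was used for an alternative background correction (normexp, offset 50), and deposited flags to leave out control and outlier spots. The authors also deposited a processed score, a Z-score per probe and array, which served as an alternative only.

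No loess or quantile normalisation was added, since many probes may truly shift 1 way. Log ratios were turned into Z-scores within each array and averaged over islands (at least 3 probes measured on every array, gaps of at most 500 bases), so a shift shared by a whole array is removed and scores depend on CpG density. The genome build is not given in the sources used here. Coordinates were those of the 28 arrays of the older design, and 492 probes without coordinates were left out. The matching genes and gene lists were chosen with earlier results of these data known.

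Groups were compared with limma 3.58.1 (lmFit and eBayes, R 4.3.3, statmod 1.5.0) in 1 fit of the adult, embryo and both ES cell groups. Teratomas were added for their own comparison, and the 8 tissues were compared by a moderated F test. The p-values are two-sided and Benjamini-Hochberg adjusted over all 13616 islands, with a threshold of 0.05. Other steps used Python 3.11.15, numpy 2.4.6, pandas 2.3.3 and matplotlib 3.10.9. Islands were named when they had the largest called differences in a comparison, with classical matrix genes always named. Of the 65 islands, 1 is counted in the totals and otherwise not reported here. Other islands in the text were chosen after their values were seen. In simulated data with 200 of 13616 islands changed by 1 unit, 95.5% were recovered when the differentiated group was set against adult arrays, 89.5% with the undifferentiated group and 79.0% with teratomas. False calls made up 7.28%, 4.28% and 5.39% of the calls. The simulated noise was independent between arrays, with no effect of slide or scan day, and most called differences of matrix genes were smaller than 1 unit. These rates therefore do not carry over to the real arrays.

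Alternatives were the deposited score table, normexp, median-centred log2 ratios, island medians, a filter on dim probes, at least 5 probes, the methods' equal-variance test, only the groups compared, averaged repeat arrays, slide, scan day or software version as a block, sex and replicate number as terms for tissues, and each array left out. The normexp correction was planned on mean signals, but 16 files hold none, so median signals were used, a choice made after seeing the data, as were the comparison within slides, the limits of 0.5 and 1 and the fit without the embryos of 8.5 and 9.5 dpc. Precision is limited by the number of arrays. Pancreatic samples have 1 array each and no test.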

Additional observations from a re-analysis of the deposited data

Results flagged for a closer look

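At Col2a1 island 2 the embryo of 8.5 dpc scored -1.52, while the other 4 embryos lay between -0.57 and -0.46, a gap of 0.90 of the range of the group. At Lamc1 endoderm replicate 1 scored -0.059, while the other 4 differentiated ES arrays lay between -1.19 and -0.88, a gap of 0.72 of the range. Both values lay far from the other arrays of their group by Dixon's criterion. In all, 78 groups of island scores were examined in this way, and chance flags about 1 in 20 groups.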

How the results depend on the processing

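The main fit called 25 islands for differentiated ES cells against adult tissue (20 higher, 5 lower). The deposited table gave 9 calls (33 islands there) and the filter on dim probes 16 (44 islands). A minimum of 5 probes gave 12 (42 islands). With the slide as a fixed block 16 were called, and 15 of these were among the 25. Median-centred log2 ratios gave 13 higher and 6 lower. Leaving out single arrays gave 21 to 29. For undifferentiated ES cells against adult tissue (5 called), 11 were called with the deposited table, 0 with normexp, median-centred ratios, the methods' t-test or scan day as a block, 2 with the dim-probe filter or at least 5 probes, 2 with slide as a block (neither among the 5), and 1 with the software version as a block. Without single lines the count ran from 0 (without EB5 or TT2) to 15 (without J1). For embryos against adult tissue (6 called), 2 were called with the deposited table or slide as a random block, 1 with normexp or without the embryos of 8.5 and 9.5 dpc, and 0 with slide, scan day or software version as a fixed block. Without single embryos the count was 3 to 4. For differentiated against undifferentiated ES cells (5 called), 0 were called with normexp, the methods' t-test or only these groups in the fit, 2 with at least 5 probes, median-centred ratios or the slide as a block, and 9 with repeat arrays averaged. Without single arrays the count was 5 to 11, the highest without retinoic acid treated cells. For differentiated ES cells against embryos (26 called), 8 were called with the deposited table or normexp, 14 with the dim-probe filter, 11 with at least 5 probes, 17 with median-centred ratios, 2 with slide or software version and 6 with scan day as a block, and 23 to 29 without single arrays. Teratomas against adult tissue (0 called) gave 1 with normexp. In the tissue comparison the replicate block, with the replicate number of the labels beside tissue, gave 0 called, as did every other alternative. The fewer islands in the deposited table, the dim-probe filter and the 5-probe minimum lower those counts by construction, and the cause of the other shifts was not tested. Counts under alternatives and counts at an unadjusted p stand without the share over all islands. The exception is undifferentiated ES cells without J1 against adult tissue.

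For the islands named by rule, 475 alternative values kept their side of the threshold, 160 lost the call and 6 changed sign. The latter were Comp island 3 between embryos and adult tissue (-0.30 with slide and -0.038 with scan day as a block), Mmp14 there (0.36 with scan day), Col6a2 island 2 and Matn1 between differentiated ES cells and embryos (0.15 and 0.24 with software version) and Adamts14 island 1 there (0.92 with slide). Among the other called islands, Mmp14 and Col25a1 between differentiated ES cells and embryos also changed sign (-0.30 with scan day and -0.020 with slide). The teratoma comparison with slide or scan day as a fixed block and the tissue comparison with scan day could not be fitted. Probes with an input near background, as at the first probe of Mmp9 island 1, are measured with less precision.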
